A study of Homo sapiens with 12 samples.

Results

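ATF4 and 9 genes of the integrated stress response that lie downstream of or beside it (ATF5, DDIT3, DDIT4, TRIB3, SESN2, NUPR1, ASNS, PSAT1 and CHAC1) were followed across 4 groups of HEK293 libraries. The genes were listed by name, with earlier results of these data known, and matched to the Ensembl IDs of the count files by symbol. They are 10 of 60554 deposited IDs. All 10 passed the filter on low counts, which left 29003 genes tested.

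The series asked how the transcriptome of a human embryonic kidney line changes when RBM17, U2SURP or CHERP, RNA-binding proteins that associate with the U2 small nuclear ribonucleoprotein, is depleted. The groups were RBM17 knockdown, U2SURP knockdown, CHERP knockdown and control, with 3 libraries each. Each knockdown label names an ON-TARGETplus SMARTpool, which is a mixture of siRNAs, and the control label names the single product ON-TARGET plus Non-targeting siRNA #3, so the knockdowns and the control may differ in this as well. All groups share the cells: the source is given as HEK293, the cell line as HEK293T (HEK293 with SV40 large T antigen added), and the passage as 10. Poly(A) RNA was made into stranded libraries.

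In the integrated stress response, kinases that sense amino acid shortage, misfolded protein in the endoplasmic reticulum, double-stranded RNA or mitochondrial and haem stress phosphorylate the initiation factor eIF2. Most translation falls, while ATF4, whose mRNA carries upstream open reading frames in its 5′ leader, is translated more. ATF4 protein, as a dimer with C/EBP family members, then switches on genes for amino acid synthesis, transport and tRNA charging, and genes such as DDIT3 and TRIB3 that shape survival. The level of ATF4 mRNA is therefore a separate quantity from the amount of ATF4 protein, and only mRNA was measured here.

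ATF4 and C/EBP dimers are known to bind a composite element, and its core, TGATGNAA, was looked for on both strands in the RefSeq promoter windows (GRCh38.p14, 250 bases before to 50 bases after each gene's start). Of the 10 genes 9 had windows, 16 in all, and NUPR1 had no entry. ASNS and CHAC1 held a match, which is 2 of 9 genes, and 4.46% of all 27305 genes with windows held it. Of 41 other genes linked to ATF4 (described further on), 29 had windows and 12 of those held a match. The 30 bases around the match are shown for ASNS and CHAC1, for MARS1, a tRNA synthetase gene that overlaps DDIT3 on the other strand, and for SLC1A5, a glutamine transporter gene that fell in each knockdown. They are written 5′ to 3′ on the strand of the gene, and the capitals mark the match.
ASNS: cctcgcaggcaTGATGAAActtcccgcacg
CHAC1: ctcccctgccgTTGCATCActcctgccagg
MARS1: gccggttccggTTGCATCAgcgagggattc
SLC1A5: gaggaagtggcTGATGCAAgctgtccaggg
The ASNS stretch lies at chr7:97872458-97872487 on the minus strand, with the match starting at position -68 from the RefSeq start. That of CHAC1 lies at chr15:40953251-40953280 on the plus strand, with the match at -209 and on the other strand. The MARS1 stretch is at chr12:57488053-57488082 on the plus strand (match at -4, other strand) and the SLC1A5 stretch at chr19:46784893-46784922 on the minus strand (match at -97). GENCODE 29 has transcripts with earlier starts, so the match falls within an annotated 5′ untranslated exon in 2 of 17 ASNS transcripts and in 2 of 5 CHAC1 transcripts. The cyclic AMP response element TGACGTCA and the endoplasmic reticulum stress element had no match in the windows of the 9 genes, against 2.25% and 0.0916% of all genes. These matches describe letters in a window, and their absence from other windows says nothing of ATF4 binding.

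The annotated 5′ leaders were scanned for upstream AUG codons in 1 transcript per gene, that with the longest coding sequence. Among transcripts with equal coding length, the one with the longest leader was taken. Other leaders of a gene were not scanned and may hold other numbers of AUG codons. The leader of ATF4 (882 bases) holds 7 upstream AUG codons, that of ATF5 holds 6 and that of DDIT3 holds 5. ASNS and TRIB3 have 2 each and SESN2 has 1. No AUG was found in the leaders scanned for DDIT4, NUPR1 and PSAT1, nor in the 20 bases scanned for CHAC1, whose longer annotated leaders were not scanned. At least 1 upstream AUG occurs in 53.4% of the 18579 coding genes with an annotated leader, and in 6 of these 10, which is close to the background.

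Whole-series measurements set the frame for these values. Libraries held between 252505520 and 320986785 gene counts. Each siRNA pool lowered its own target: RBM17 had 26.5 ± 0.523 CPM (counts scaled to a common library size) in its knockdown and 115 ± 2.73 CPM in control, U2SURP had 144 ± 5.65 CPM in its knockdown and 471 ± 33.3 CPM in control, and CHERP had 18.0 ± 0.788 CPM in its knockdown and 61.3 ± 1.06 CPM in control (SD, n = 3 each). Mitochondrially encoded genes took 3.98% to 5.15% of counts in the knockdowns and 7.88% to 8.7% in control. All 6 HEK293 identity genes were detected, with a summed level of 587 to 740 CPM, although PAX2 and LHX1 were near 1 CPM. Of these 6, 4 rose in RBM17 knockdown (INA by 1.03 and NEFL by 0.63 on the log2 scale), 3 fell in U2SURP knockdown, and 3 fell (PAX2 at -1.28, NEFM at -0.83) and 1 rose in CHERP knockdown. Among all genes 25.4% rose in RBM17 knockdown, 22.2% fell in U2SURP knockdown, and 24.6% fell and 22.8% rose in CHERP knockdown. Of 12 markers of fibroblasts, blood cells and epithelium, none was at 0 in all 12 libraries. The lowest count of DCN, LUM, PTPRC, CD3E, KRT5 and KRT14 was 0. The summed levels of the markers were 0.875 to 1.96, 1.09 to 3.56 and 5.1 to 9.54 CPM. Their part in the results was not tested.

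Values below are CPM in libraries 1, 2 and 3 of a group, and differences are log2 fold changes, knockdown minus control, ± SE from edgeR's quasi-likelihood fit. Adjusted p-values are Benjamini-Hochberg values over all 29003 genes, and rose, fell and called refer to an adjusted p under 0.05. Since no label says whether the libraries of a group are separate cultures, the p-values reflect spread between libraries that may be technical. Library numbers run in blocks by group, and preparation batch and group cannot be told apart. In bulk RNA, fewer cells with a transcript and less of it per cell cannot be told apart either. All 3 comparisons with control share the same 3 control libraries.

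Against control, 8 of the 10 genes rose and none fell in RBM17 knockdown, 8 rose and 1 fell in U2SURP knockdown, and 7 rose and 1 fell in CHERP knockdown. Large parts of the transcriptome also moved: 54.7% of all genes were called in RBM17 knockdown (25.4% higher, 29.3% lower), 43.3% in U2SURP knockdown (21.1% higher, 22.2% lower) and 47.3% in CHERP knockdown (22.8% higher, 24.6% lower). The median log2 fold change of the 10 genes was 0.44, 0.58 and 0.40 in RBM17, U2SURP and CHERP knockdown, while that of all genes was -0.10, -0.02 and 0.00. TRIB3, ASNS, CHAC1 and PSAT1 rose in all 3 knockdowns, as did 10.2% of all genes. ATF4 and DDIT4 were called in all 3 with directions that differed, which held for 3.47% of all genes. The libraries of knockdown and control did not overlap for 7 genes in RBM17 knockdown, 10 in U2SURP knockdown and 7 in CHERP knockdown, where the share among all genes was 59.3%, 52.0% and 54.9%.

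**Figure D1:**
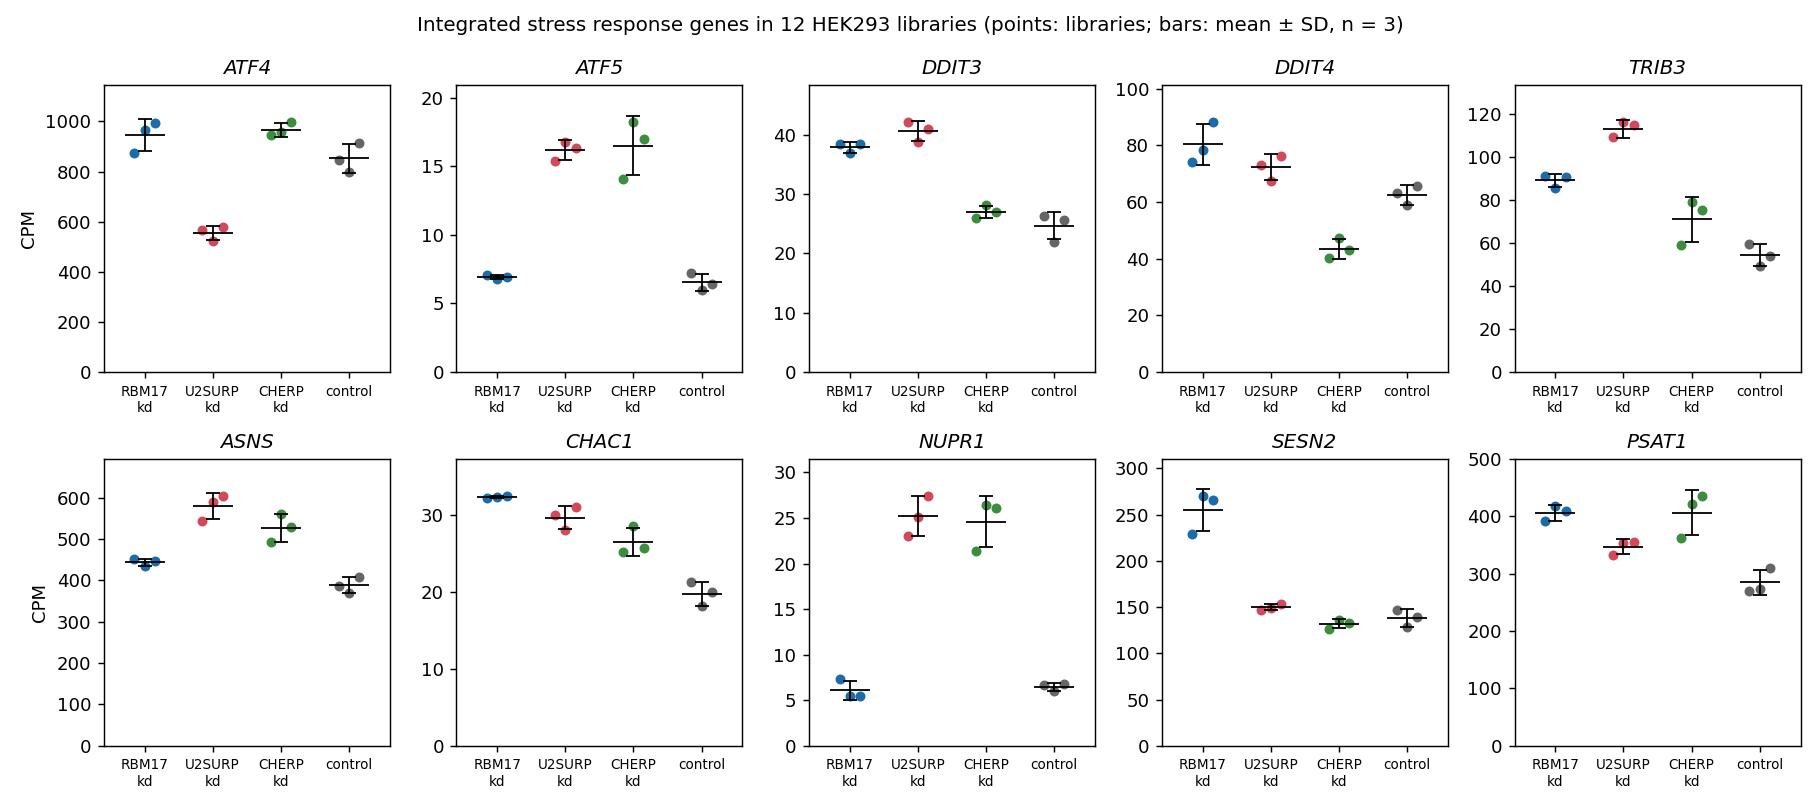
CPM of the 10 genes in each library (points, 3 per group) with the mean ± SD (bars), each panel on its own linear axis from 0, in RBM17, U2SURP and CHERP knockdown (kd) and control. ATF4 was lowest in U2SURP knockdown (524 to 579 CPM), where each of the other genes shown stood above all 3 control libraries. Of these, SESN2 was not called. Among all genes, 52.0% did not overlap between U2SURP knockdown and control, in either direction.

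Among the transcription factors, ATF4 itself (ENSG00000128272; GRCh38 chromosome 22, 39519695 to 39522685, plus strand) had 874, 966 and 995 CPM in RBM17 knockdown, 566, 524 and 579 CPM in U2SURP knockdown, 945, 957 and 996 CPM in CHERP knockdown, and 845, 800 and 914 CPM in control. The U2SURP knockdown libraries lay far below all others, the CHERP knockdown libraries lay just above control, and those of RBM17 knockdown overlapped control. ATF4 fell in U2SURP knockdown to 0.652 of the control level (log2 -0.62 ± 0.061, edgeR adjusted p = 2.54e-08). It rose by a small amount in CHERP knockdown (0.18 ± 0.061, edgeR adjusted p = 0.0178) and in RBM17 knockdown (0.15 ± 0.061, edgeR adjusted p = 0.0437). These 2 increases were not stable. The call in CHERP knockdown was lost without its library 3 (0.13, edgeR adjusted p = 0.134), control library 1 (0.17, edgeR adjusted p = 0.0536) or control library 2 (0.13, edgeR adjusted p = 0.112). The call in RBM17 knockdown was lost without its library 2 (0.13, edgeR adjusted p = 0.125), its library 3 (0.11, edgeR adjusted p = 0.194), control library 1 (0.14, edgeR adjusted p = 0.103) or control library 2 (0.10, edgeR adjusted p = 0.21), and when the fit held protein-coding genes only (0.08, edgeR adjusted p = 0.214). Between knockdowns, ATF4 was higher in RBM17 knockdown than in U2SURP knockdown (0.76 ± 0.061, edgeR adjusted p = 5.95e-10) and lower in U2SURP knockdown than in CHERP knockdown (-0.80 ± 0.061, edgeR adjusted p = 1.03e-09). The difference between RBM17 and CHERP knockdown was -0.03, with a 95% confidence interval of -0.16 to 0.09.

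Processed pseudogenes could take reads from ATF4. The pseudogene with the most counts, ATF4P3, had 1.8 ± 0.21 CPM in RBM17 knockdown, 1.06 ± 0.0232 CPM in U2SURP knockdown, 1.85 ± 0.3 CPM in CHERP knockdown and 1.78 ± 0.165 CPM in control (SD, n = 3 each). It moved as ATF4 did in U2SURP knockdown (-0.74 ± 0.13, edgeR adjusted p = 5.02e-05) at a small part of its level, and whether its reads come from ATF4 mRNA cannot be told apart in gene counts.

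ATF5, a close relative of ATF4 whose mRNA is also known for upstream open reading frames, separated the knockdowns. It had 7.08, 6.76 and 6.93 CPM in RBM17 knockdown, 15.4, 16.8 and 16.3 CPM in U2SURP knockdown, 14.1, 18.2 and 17.0 CPM in CHERP knockdown, and 7.21, 6.01 and 6.44 CPM in control. Every U2SURP and CHERP knockdown library was above every control library, and RBM17 knockdown lay among the controls. ATF5 (ENSG00000169136; chromosome 19, 49928702 to 49933935, plus strand) rose 2.47-fold in U2SURP knockdown (1.30 ± 0.084, edgeR adjusted p = 4.65e-11) and 2.51-fold in CHERP knockdown (1.33 ± 0.084, edgeR adjusted p = 8.79e-12). In RBM17 knockdown the difference was 0.08, with a 95% interval of -0.09 to 0.25 (edgeR adjusted p = 0.442). The direct contrasts with RBM17 knockdown on top were -1.22 ± 0.083 against U2SURP knockdown and -1.25 ± 0.084 against CHERP knockdown (edgeR adjusted p = 4.73e-11 and 1.28e-11). U2SURP and CHERP knockdown differed by -0.03, with an interval of -0.19 to 0.14.

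NUP62, a nuclear pore gene, overlaps ATF5 on the other strand, and the strand setting of the counting is not given in the sources used here. NUP62 had 145 ± 7.84 CPM in RBM17 knockdown, 123 ± 1.83 CPM in U2SURP knockdown, 141 ± 1.74 CPM in CHERP knockdown and 126 ± 2.1 CPM in control (SD, n = 3 each). Its log2 fold changes were 0.20, -0.04 and 0.16 in RBM17, U2SURP and CHERP knockdown, beside 0.08, 1.30 and 1.33 for ATF5.

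DDIT3 encodes CHOP, a stress-induced transcription factor linked to cell death. Its level was 38.4, 36.9 and 38.4 CPM in RBM17 knockdown, 42.1, 38.8 and 40.9 CPM in U2SURP knockdown, 26.0, 28.1 and 27.0 CPM in CHERP knockdown, and 26.3, 22 and 25.7 CPM in control. The RBM17 and U2SURP knockdown libraries stood clear of control, and those of CHERP knockdown overlapped it. DDIT3 (ENSG00000175197; chromosome 12, 57516588 to 57521737, minus strand) rose in RBM17 knockdown (0.62 ± 0.062, edgeR adjusted p = 8.89e-09) and in U2SURP knockdown (0.72 ± 0.062, edgeR adjusted p = 3.17e-09). In CHERP knockdown the difference was 0.13, with an interval of 0.01 to 0.26, and missed the threshold (edgeR adjusted p = 0.0815). It passed without control library 1 (0.18, edgeR adjusted p = 0.0324) or control library 3 (0.16, edgeR adjusted p = 0.0436) and was 0.06 without control library 2 (edgeR adjusted p = 0.489). DDIT3 was higher in RBM17 knockdown than in CHERP knockdown (0.49 ± 0.062, edgeR adjusted p = 4.23e-07) and in U2SURP knockdown than in CHERP knockdown (0.59 ± 0.062, edgeR adjusted p = 1.36e-07).

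DDIT3 overlaps MARS (MARS1 in current naming, methionyl-tRNA synthetase) and MBD6 on the other strand. Its counts could therefore gain or lose reads if strand was not used. The overlap is one of whole gene spans, and overlap of exons was not examined. MARS was far more abundant, at 559 ± 20.5 CPM in RBM17 knockdown, 471 ± 13.5 CPM in U2SURP knockdown, 445 ± 10.8 CPM in CHERP knockdown and 311 ± 10.7 CPM in control (SD, n = 3 each). MARS rose in all 3 knockdowns (0.84, 0.60 and 0.52 in RBM17, U2SURP and CHERP knockdown), and in CHERP knockdown its increase stood beside a DDIT3 difference of 0.13. MBD6 fell in all 3: it had 80.7 ± 3.99 CPM in RBM17 knockdown, 98.7 ± 4.55 CPM in U2SURP knockdown, 98.7 ± 8.3 CPM in CHERP knockdown and 128 ± 15.3 CPM in control (SD, n = 3 each), with log2 fold changes of -0.67, -0.38 and -0.38. The effect of MARS and MBD6 reads on the DDIT3 counts was not tested.

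**Figure D2:**
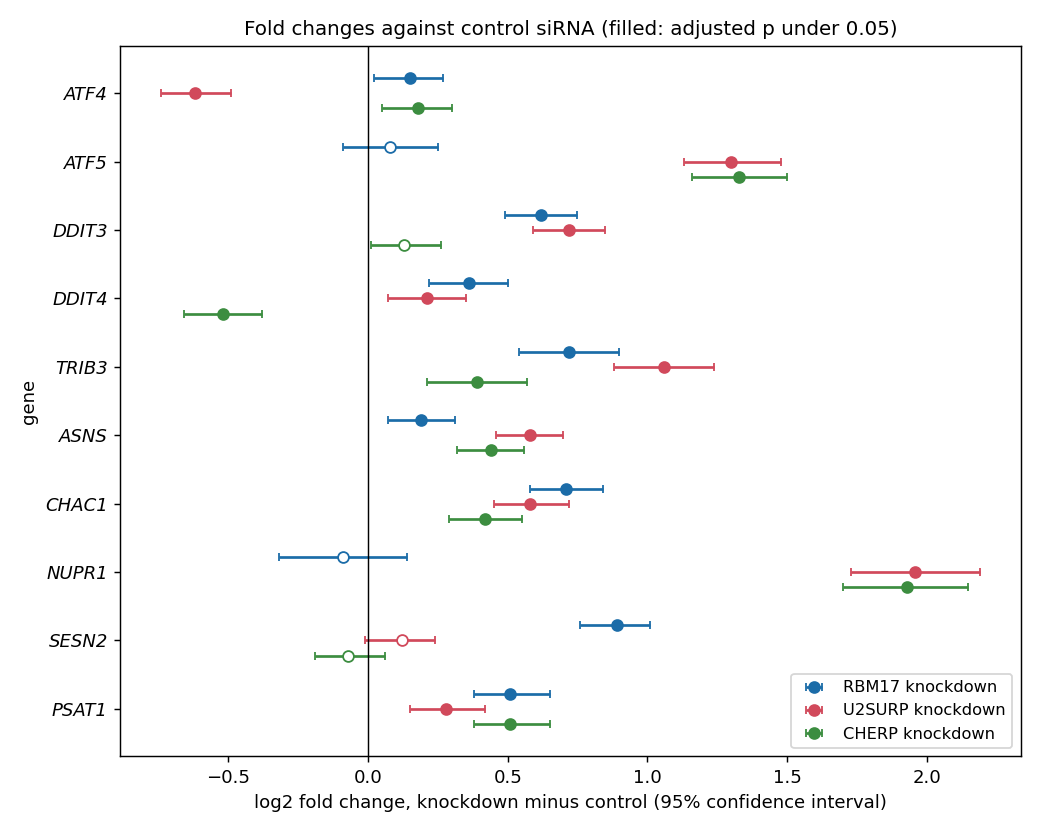
Log2 fold change of each of the 10 genes in RBM17, U2SURP and CHERP knockdown (colours) against control, with 95% confidence intervals; filled points passed an adjusted p under 0.05. ATF4 fell in U2SURP knockdown alone of the 3 (-0.62), DDIT4 in CHERP knockdown alone (-0.52), and NUPR1 had the largest increases (1.96 in U2SURP knockdown and 1.93 in CHERP knockdown).

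DDIT4, SESN2 and TRIB3 encode proteins that restrain growth or survival signalling. DDIT4, also called REDD1, restrains the growth kinase complex mTORC1. It had 74.1, 78.5 and 88.1 CPM in RBM17 knockdown, 73.2, 67.3 and 76.4 CPM in U2SURP knockdown, 40.2, 47.3 and 42.9 CPM in CHERP knockdown, and 63.1, 58.8 and 65.7 CPM in control. RBM17 and U2SURP knockdown lay above control and CHERP knockdown lay below it, with no overlap in any of the 3 comparisons. DDIT4 (ENSG00000168209; chromosome 10, 72273920 to 72276036, plus strand) rose in RBM17 knockdown (0.36 ± 0.068, edgeR adjusted p = 7.79e-05) and fell in CHERP knockdown (-0.52 ± 0.068, edgeR adjusted p = 8.07e-07). Its increase in U2SURP knockdown was smaller (0.21 ± 0.068, edgeR adjusted p = 0.0144). That call was lost without U2SURP knockdown library 1 (0.18, edgeR adjusted p = 0.0558), its library 3 (0.17, edgeR adjusted p = 0.0883) or control library 2 (0.17, edgeR adjusted p = 0.095). The direct contrasts were 0.88 ± 0.068 for RBM17 minus CHERP knockdown and 0.73 ± 0.068 for U2SURP minus CHERP knockdown (edgeR adjusted p = 1.49e-10 and 2.16e-08).

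SESN2, which encodes a sestrin that senses leucine and also restrains mTORC1, moved in RBM17 knockdown. It had 229, 270 and 266 CPM in RBM17 knockdown, 147, 149 and 153 CPM in U2SURP knockdown, 126, 136 and 133 CPM in CHERP knockdown, and 147, 128 and 139 CPM in control. The RBM17 knockdown libraries lay far above control, those of U2SURP knockdown lay just above it with no overlap, and those of CHERP knockdown overlapped it. SESN2 (ENSG00000130766; chromosome 1, 28259527 to 28282491, plus strand) rose 1.85-fold in RBM17 knockdown (0.89 ± 0.062, edgeR adjusted p = 3.17e-11). The differences in U2SURP knockdown (0.12, interval -0.01 to 0.24, edgeR adjusted p = 0.132) and CHERP knockdown (-0.07, interval -0.19 to 0.06, edgeR adjusted p = 0.402) missed the threshold. SESN2 was higher in RBM17 knockdown than in U2SURP knockdown (0.77 ± 0.061, edgeR adjusted p = 5.84e-10) and than in CHERP knockdown (0.95 ± 0.062, edgeR adjusted p = 7.24e-12).

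TRIB3 encodes a pseudokinase that binds ATF4 and the kinase AKT. Its level was 90.9, 85.4 and 90.8 CPM in RBM17 knockdown, 109, 116 and 115 CPM in U2SURP knockdown, 59.1, 78.8 and 75.1 CPM in CHERP knockdown, and 59.5, 49.4 and 53.7 CPM in control. Library 1 of CHERP knockdown fell within the range of control and all other knockdown libraries lay above it. TRIB3 (ENSG00000101255; chromosome 20, 362835 to 397559, plus strand) rose in RBM17 knockdown (0.72 ± 0.085, edgeR adjusted p = 1.17e-06), U2SURP knockdown (1.06 ± 0.085, edgeR adjusted p = 2.69e-08) and CHERP knockdown (0.39 ± 0.085, edgeR adjusted p = 9.61e-04). All 3 knockdowns differed from each other: RBM17 minus U2SURP knockdown was -0.35 ± 0.084, RBM17 minus CHERP knockdown was 0.33 ± 0.085 and U2SURP minus CHERP knockdown was 0.67 ± 0.085 (edgeR adjusted p = 0.00256, 0.0035 and 1.08e-05). The second of these was 0.21 without CHERP knockdown library 1 (edgeR adjusted p = 0.00983).

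NUPR1, a small stress-induced nuclear protein that binds chromatin factors, had the largest fold changes of the 10 genes. It had 7.28, 5.51 and 5.46 CPM in RBM17 knockdown, 23.0, 25.1 and 27.4 CPM in U2SURP knockdown, 21.4, 26.4 and 26.1 CPM in CHERP knockdown, and 6.63, 5.99 and 6.83 CPM in control. U2SURP and CHERP knockdown lay far above control, and RBM17 knockdown spanned it. NUPR1 (ENSG00000176046; chromosome 16, 28532708 to 28539174, minus strand) rose 3.89-fold in U2SURP knockdown (1.96 ± 0.11, edgeR adjusted p = 3.56e-10) and 3.8-fold in CHERP knockdown (1.93 ± 0.11, edgeR adjusted p = 1.44e-10). In RBM17 knockdown it differed by -0.09, with an interval of -0.32 to 0.14 (edgeR adjusted p = 0.506); without that group's library 1, which was the highest of the 3, the difference was -0.24 (edgeR adjusted p = 0.0309). RBM17 minus U2SURP knockdown was -2.05 ± 0.11 and RBM17 minus CHERP knockdown was -2.02 ± 0.11 (edgeR adjusted p = 1.08e-10 and 5.20e-11). U2SURP and CHERP knockdown differed by 0.03, with an interval of -0.18 to 0.25. Over the 3 fold changes against control, the gene among the 10 nearest to NUPR1 was ATF5, at a root mean square difference of 0.520 log2 units.

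The 3 enzyme genes rose in every knockdown. ASNS makes asparagine from aspartate and glutamine and is a classic target of ATF4. It had 451, 434 and 447 CPM in RBM17 knockdown, 545, 590 and 604 CPM in U2SURP knockdown, 492, 560 and 529 CPM in CHERP knockdown, and 387, 369 and 408 CPM in control. All 9 knockdown libraries lay above all 3 controls, and U2SURP knockdown reached the highest values. ASNS (ENSG00000070669; chromosome 7, 97852118 to 97872542, minus strand) rose by 0.58 ± 0.058 in U2SURP knockdown, 0.44 ± 0.057 in CHERP knockdown and 0.19 ± 0.057 in RBM17 knockdown (edgeR adjusted p = 2.75e-08, 8.29e-07 and 0.00645). When the fit held protein-coding genes only, the difference in RBM17 knockdown was 0.12 (edgeR adjusted p = 0.0488). ASNS was lower in RBM17 knockdown than in U2SURP knockdown (-0.39 ± 0.057, edgeR adjusted p = 6.40e-06) and than in CHERP knockdown (-0.25 ± 0.057, edgeR adjusted p = 7.89e-04).

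The pseudogene ASNSP1 had 18.9 ± 0.742 CPM in RBM17 knockdown, 54.4 ± 3.51 CPM in U2SURP knockdown, 43.8 ± 4.4 CPM in CHERP knockdown and 26.5 ± 0.552 CPM in control (SD, n = 3 each). It rose with ASNS in U2SURP knockdown (1.04 ± 0.065, edgeR adjusted p = 3.19e-11) and CHERP knockdown (0.73 ± 0.065, edgeR adjusted p = 2.39e-09) and fell in RBM17 knockdown (-0.49 ± 0.065, edgeR adjusted p = 7.20e-07), where ASNS rose. Reads shared between the gene and the pseudogene make both values uncertain to that extent.

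PSAT1, an aminotransferase of serine synthesis, had 391, 418 and 409 CPM in RBM17 knockdown, 332, 354 and 355 CPM in U2SURP knockdown, 362, 421 and 435 CPM in CHERP knockdown, and 270, 274 and 310 CPM in control. No knockdown library overlapped control. PSAT1 (ENSG00000135069; chromosome 9, 78297143 to 78330093, plus strand) rose by 0.51 ± 0.065 in RBM17 knockdown, 0.28 ± 0.065 in U2SURP knockdown and 0.51 ± 0.065 in CHERP knockdown (edgeR adjusted p = 3.92e-07, 9.44e-04 and 5.95e-07). It was lower in U2SURP than in CHERP knockdown (-0.23 ± 0.065, edgeR adjusted p = 0.0101), a call lost without U2SURP knockdown library 1 (-0.19, edgeR adjusted p = 0.063), CHERP knockdown library 2 (-0.20, edgeR adjusted p = 0.0575) or CHERP knockdown library 3 (-0.16, edgeR adjusted p = 0.0845).

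CHAC1 encodes an enzyme that degrades glutathione. It had 32.3, 32.4 and 32.5 CPM in RBM17 knockdown, 30.0, 28.1 and 31.1 CPM in U2SURP knockdown, 25.2, 28.6 and 25.7 CPM in CHERP knockdown, and 21.3, 18.2 and 20.0 CPM in control. Again all 9 knockdown libraries exceeded the controls, with RBM17 knockdown the highest. CHAC1 (ENSG00000128965; chromosome 15, 40952962 to 40956519, plus strand) rose by 0.71 ± 0.063 in RBM17 knockdown, 0.58 ± 0.063 in U2SURP knockdown and 0.42 ± 0.063 in CHERP knockdown (edgeR adjusted p = 1.58e-09, 9.66e-08 and 6.95e-06). The difference between RBM17 and CHERP knockdown was 0.29 ± 0.063 (edgeR adjusted p = 4.19e-04), and that between RBM17 and U2SURP knockdown was 0.12, with an interval of -0.01 to 0.25 (edgeR adjusted p = 0.113).

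Set against each other directly, the knockdowns differed in most of the 10 genes. RBM17 minus U2SURP knockdown gave 3 higher and 4 lower genes, where 44.5% of all genes were called (23.0% higher, 21.5% lower) and 53.2% did not overlap. RBM17 minus CHERP knockdown gave 5 higher and 3 lower, where 51.6% of all genes were called (26.1% higher, 25.5% lower) and 57.9% did not overlap. U2SURP minus CHERP knockdown gave 4 higher and 2 lower, where 27.9% of all genes were called (15.0% higher, 12.9% lower) and 42.9% did not overlap. SESN2, the least certain of these 6, was higher in U2SURP knockdown by 0.18 ± 0.061 (edgeR adjusted p = 0.0276) and lost the call without U2SURP knockdown library 2 (0.19, edgeR adjusted p = 0.0609), its library 3 (0.16, edgeR adjusted p = 0.104) or CHERP knockdown library 1 (0.15, edgeR adjusted p = 0.105).

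Levels per kilobase of exon put the genes on a common scale. In control, ATF4 had 339 ± 22.8 CPM per kb, PSAT1 130 ± 10.1, ASNS 87.2 ± 4.35, SESN2 40 ± 2.81, DDIT4 30.4 ± 1.68, DDIT3 18.9 ± 1.78, TRIB3 15.8 ± 1.48, CHAC1 9.63 ± 0.747, ATF5 2.22 ± 0.205 and NUPR1 1.14 ± 0.0768 CPM per kb (SD, n = 3). DDIT3 and TRIB3 were the only neighbours in this order whose control libraries overlapped. In U2SURP knockdown TRIB3 overlapped both DDIT4 and DDIT3, and in CHERP knockdown DDIT4, DDIT3 and TRIB3 overlapped in turn. With the length of the longest transcript in place of all exons, ASNS moved above PSAT1 in control (165 against 130 CPM per kb). NUPR1 has a coding sequence of 300 bases within annotated exons of 5674 bases, so its place at the end of the order depends on which transcript is present.

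ATF4 was the most abundant of the 10 genes per kilobase in every library, with either length. Relative to ATF4 in the same library, the level of all 9 other genes was above every control library in U2SURP knockdown. In RBM17 knockdown 6 of 9 were above every control library and 3 overlapped, and in CHERP knockdown 5 were above, 2 (DDIT4 and SESN2) were below and 2 overlapped. The share of all genes above every control library in this ratio was not counted. In U2SURP knockdown ATF4 was at -0.62, and the median log2 fold change of all genes was -0.02. A gene with no change of its own therefore also gains on ATF4 there. PSAT1 was at 49.4% of ATF4 in RBM17 knockdown, 71.7% in U2SURP knockdown, 48.2% in CHERP knockdown and 38.4% in control. ASNS was at 26.5% of ATF4 in RBM17 knockdown, 58.8% in U2SURP knockdown, 30.8% in CHERP knockdown and 25.7% in control. TRIB3 was at 6.91% of ATF4 in RBM17 knockdown, 14.9% in U2SURP knockdown, 5.34% in CHERP knockdown and 4.64% in control. Part of each shift in U2SURP knockdown is the fall of ATF4 itself, since the same ATF4 values divide all 9 genes: for SESN2, whose own difference was 0.12, the ratio was 0.73 log2 units above control.

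**Figure D3:**
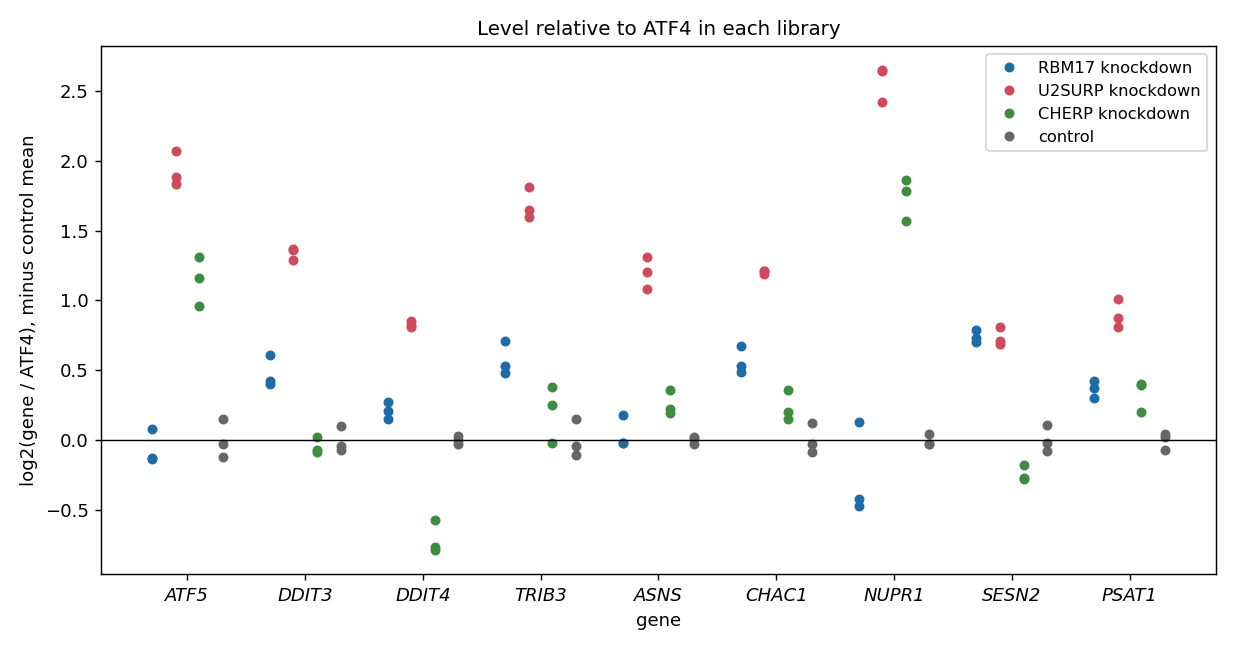
Log2 ratio of each of 9 genes to ATF4 in the same library, as the difference from the control mean (0 line), in RBM17, U2SURP and CHERP knockdown and control; points are libraries. All U2SURP knockdown points lie above the control points, from a mean of 0.73 for SESN2 to 2.57 for NUPR1.

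The other 9 genes lay far from ATF4 in pattern. Among 10929 protein-coding genes with a mean of at least 5 CPM, ranked by the root mean square difference of their 3 log2 fold changes against control from those of ATF4, they ranked between 8032 (PSAT1, 0.593 log2 units) and 10924 (NUPR1, 1.802 log2 units). The 5 nearest genes were HIC2 (0.10), SUSD1 (0.107), MFSD4A (0.138), HIPK1 (0.142) and TBCEL (0.154). HIC2, a transcriptional repressor gene, had log2 fold changes of 0.11, -0.47 and 0.10 in RBM17, U2SURP and CHERP knockdown, and HIPK1, a nuclear kinase gene, had 0.25, -0.43 and 0.31. Within the set, DDIT3 and CHAC1 were nearest to each other (0.189 log2 units). These distances are over 3 comparisons that share their control libraries and describe likeness of pattern alone.

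Upstream of ATF4, 22 genes were counted, for eIF2, its kinases, its exchange factor eIF2B, its phosphatases and their regulators. The 22 also include EIF2A and EIF2D, which encode initiation factors separate from eIF2. EIF2A fell in RBM17 knockdown (-0.21) and rose in U2SURP knockdown (0.42) and CHERP knockdown (0.53). EIF2D fell in each (-0.32, -0.25 and -0.30 in the same order). In RBM17 knockdown 11 rose and 10 fell (median 0.07), in U2SURP knockdown 9 rose and 6 fell (median 0.07), and in CHERP knockdown 5 rose and 8 fell (median -0.03). The shares of all genes were 25.4% higher and 29.3% lower, 21.1% and 22.2%, and 22.8% and 24.6% in the same order of knockdowns, so the counts in CHERP knockdown lie near the background. DELE1, which relays mitochondrial stress to the kinase HRI, had 41.1 ± 1.19 CPM in RBM17 knockdown, 41.2 ± 1.71 CPM in U2SURP knockdown, 33.8 ± 0.616 CPM in CHERP knockdown and 62.6 ± 1.64 CPM in control (SD, n = 3 each), and it fell in each knockdown (-0.61, -0.60 and -0.89). IMPACT, an inhibitor of the amino acid sensing kinase GCN2, rose in each knockdown (0.73, 0.70 and 0.89 in RBM17, U2SURP and CHERP knockdown). EIF2AK3, which encodes the endoplasmic reticulum kinase PERK, fell in each (-0.26, -0.32 and -0.42). EIF2S1, the subunit of eIF2 that is phosphorylated, rose in RBM17 knockdown (129 ± 8.74 CPM there, against 77.0 ± 5.34 CPM in control, log2 0.74 ± 0.061, edgeR adjusted p = 4.52e-10) and in U2SURP knockdown (0.38, edgeR adjusted p = 2.23e-05), and differed by 0.14 in CHERP knockdown (edgeR adjusted p = 0.061). The eIF2B subunit EIF2B3 rose in RBM17 knockdown (0.83 ± 0.09, edgeR adjusted p = 4.26e-07) and U2SURP knockdown (0.26, edgeR adjusted p = 0.0254), with a difference of 0.02 in CHERP knockdown. PPP1R15A, a stress-induced phosphatase subunit and a known target of the pathway, fell in RBM17 knockdown (-0.45 ± 0.064, edgeR adjusted p = 2.29e-06), rose in U2SURP knockdown (0.19, edgeR adjusted p = 0.0178) and differed by -0.09 in CHERP knockdown.

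The 6 bZIP factors that pair with ATF4 or resemble it all rose in RBM17 knockdown (median 0.48). In U2SURP knockdown 5 rose (median 0.40), in CHERP knockdown 3 rose (median 0.15), and none fell in any. The shares of all genes that rose were 25.4%, 21.1% and 22.8% in RBM17, U2SURP and CHERP knockdown. CEBPG, a partner of ATF4, had 242 ± 3.36 CPM in RBM17 knockdown, 246 ± 7.08 CPM in U2SURP knockdown and 151 ± 10.2 CPM in control (SD, n = 3 each), which are increases of 0.68 ± 0.053 and 0.70 ± 0.053 (edgeR adjusted p = 1.88e-10 and 4.51e-10), and it rose by 0.35 in CHERP knockdown (edgeR adjusted p = 6.62e-06). JDP2 rose in all 3, by 0.68, 0.41 and 0.71 in RBM17, U2SURP and CHERP knockdown (edgeR adjusted p = 3.60e-08, 9.04e-05 and 3.02e-08).

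Beyond the 10 genes, 41 further genes linked to ATF4 or CHOP in the literature were described in 4 lists. Together 23 rose and 7 fell in RBM17 knockdown (median 0.27), 21 rose and 10 fell in U2SURP knockdown (median 0.26), and 24 rose and 10 fell in CHERP knockdown (median 0.22). Among all genes 25.4% rose and 29.3% fell in RBM17 knockdown, 21.1% and 22.2% in U2SURP knockdown, and 22.8% and 24.6% in CHERP knockdown. The decreases among the 41 in U2SURP and CHERP knockdown thus lie near the background. Of the 41 genes, the 12 whose promoter windows held TGATGNAA had 6 increases and 3 decreases in RBM17 knockdown, 5 and 4 in U2SURP knockdown, and 8 and 4 in CHERP knockdown. The 17 genes with windows and no match had 10 and 2, 9 and 5, and 9 and 5 in the same order of knockdowns.

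**Figure D4:**
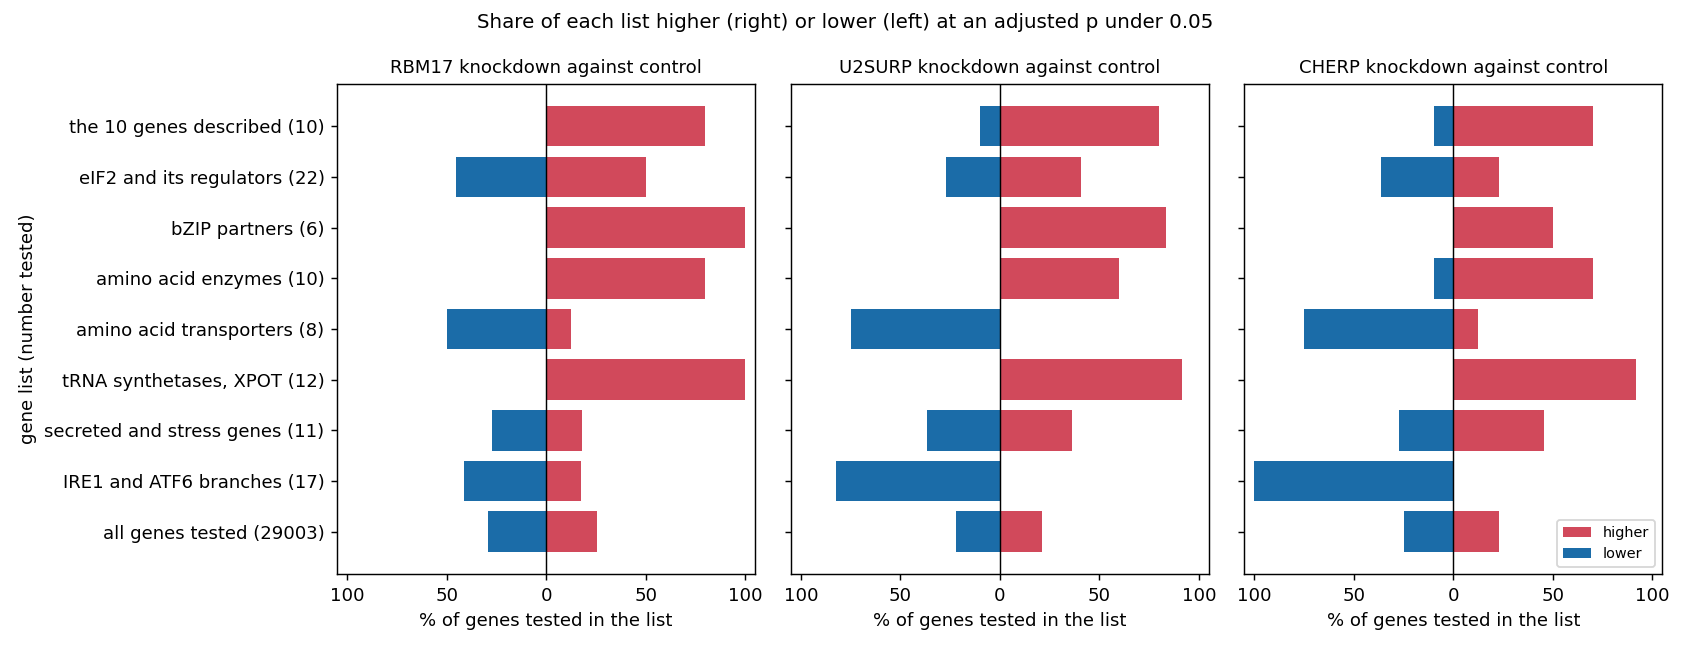
Percent of the genes tested in each list that were higher (right) or lower (left) at an adjusted p under 0.05 in RBM17, U2SURP and CHERP knockdown against control, with all 29003 genes in the last row. All 12 genes of the tRNA synthetase list were higher in RBM17 knockdown, and all 17 of the IRE1 and ATF6 list were lower in CHERP knockdown.

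The list of 11 cytosolic tRNA synthetases and the tRNA exporter XPOT was the most uniform: 12 of 12 rose in RBM17 knockdown (median 0.54), and 11 of 12 rose in both U2SURP knockdown (median 0.53) and CHERP knockdown (median 0.58), with none lower. Among all genes 25.4%, 21.1% and 22.8% rose in the same order of knockdowns. WARS, tryptophanyl-tRNA synthetase, had 193 ± 1.76 CPM in RBM17 knockdown, 179 ± 8.69 CPM in U2SURP knockdown, 172 ± 6.43 CPM in CHERP knockdown and 95 ± 2.59 CPM in control (SD, n = 3 each). It rose by 1.02 ± 0.05, 0.92 ± 0.05 and 0.85 ± 0.05 (edgeR adjusted p = 2.42e-13, 3.83e-12 and 2.74e-12). SARS rose by 0.56, 0.87 and 0.69 in RBM17, U2SURP and CHERP knockdown, and EPRS rose by 0.53, 0.59 and 0.80 (largest edgeR adjusted p = 2.85e-06).

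Of 10 other enzymes of amino acid and one-carbon metabolism, 8 rose in RBM17 knockdown (median 0.42), 6 in U2SURP knockdown (median 0.30) and 7 in CHERP knockdown (median 0.35), and 1, ALDH18A1 in CHERP knockdown, fell (-0.19 ± 0.056, edgeR adjusted p = 0.00728). Increases were called for 25.4%, 21.1% and 22.8% of all genes in RBM17, U2SURP and CHERP knockdown. ALDH18A1 rose in RBM17 knockdown (0.47) and differed by -0.09 in U2SURP knockdown. The serine synthesis enzymes next to PSAT1 in the pathway differed. PSPH, the phosphatase that follows it, rose most in RBM17 knockdown (65.2 ± 4.81 CPM there, against 34.7 ± 2.16 CPM in control, log2 0.91 ± 0.058, edgeR adjusted p = 9.02e-12), rose by 0.26 in U2SURP knockdown (edgeR adjusted p = 7.64e-04) and differed by 0.05 in CHERP knockdown. PHGDH, the enzyme before it, rose in each knockdown (0.51, 0.66 and 0.75 in RBM17, U2SURP and CHERP knockdown). MTHFD2, a mitochondrial folate enzyme, had 398 ± 48.2 CPM in CHERP knockdown and 205 ± 18.5 CPM in control, an increase of 0.96 ± 0.076 (edgeR adjusted p = 1.27e-09), and rose by 0.25 in RBM17 knockdown and 0.62 in U2SURP knockdown. CTH, which makes cysteine, rose by 0.79, 0.45 and 0.96 in RBM17, U2SURP and CHERP knockdown.

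Among the 8 amino acid transporters, decreases outnumbered increases in each knockdown. In RBM17 knockdown 1 rose and 4 fell (median -0.16), in U2SURP knockdown 6 fell and none rose (median -0.42), and in CHERP knockdown 1 rose and 6 fell (median -0.33). The shares of all genes were 25.4% higher and 29.3% lower, 21.1% and 22.2%, and 22.8% and 24.6% in the same order of knockdowns. SLC38A2, a carrier of small neutral amino acids, had 484 ± 52.6 CPM in RBM17 knockdown, 376 ± 28.1 CPM in U2SURP knockdown, 406 ± 27.6 CPM in CHERP knockdown and 604 ± 43.1 CPM in control (SD, n = 3 each), and fell in each (-0.32, -0.68 and -0.57). SLC1A5, whose promoter stretch is shown above, fell most in U2SURP knockdown (190 ± 5.35 CPM there, against 329 ± 20.7 CPM in control, log2 -0.80 ± 0.055, edgeR adjusted p = 1.20e-10), and by less in RBM17 (-0.24) and CHERP knockdown (-0.28). SLC7A11, the cystine carrier, fell in RBM17 knockdown (-0.71 ± 0.069, edgeR adjusted p = 6.61e-09) and differed by 0.15 and 0.11 in U2SURP and CHERP knockdown. SLC7A1, a carrier of cationic amino acids, fell in CHERP knockdown (-0.80 ± 0.053, edgeR adjusted p = 2.42e-11) and U2SURP knockdown (-0.54) and differed by -0.11 in RBM17 knockdown.

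Among 11 secreted and stress genes, 2 rose and 3 fell in RBM17 knockdown, 4 rose and 4 fell in U2SURP knockdown, and 5 rose and 3 fell in CHERP knockdown (medians -0.09, 0.03 and 0.18). In RBM17 knockdown these counts do not exceed the shares of all genes, 25.4% higher and 29.3% lower. Those shares were 21.1% higher and 22.2% lower in U2SURP knockdown, and 22.8% higher and 24.6% lower in CHERP knockdown. The decreases in CHERP knockdown thus lie near the background. EIF4EBP1, a repressor of cap-dependent translation, rose in each (0.91, 0.79 and 0.62 in RBM17, U2SURP and CHERP knockdown). TNFRSF10B fell in each (-0.18, -0.30 and -0.41 in the same order). VLDLR fell in RBM17 knockdown (-0.48) and U2SURP knockdown (-0.58). Its mean was also lower in CHERP knockdown, at 42.7 CPM against 53.2 CPM in control. GDF15, a secreted stress hormone, was low throughout and had 5.29 ± 1.93 CPM in U2SURP knockdown, 6.04 ± 2.4 CPM in CHERP knockdown and 1.37 ± 0.105 CPM in control (SD, n = 3 each). It rose in those 2 knockdowns (1.95 ± 0.38 and 2.14 ± 0.38, edgeR adjusted p = 0.00299 and 0.00155), and in RBM17 knockdown the difference was -0.93 (edgeR adjusted p = 0.0856).

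Genes of the IRE1 and ATF6 branches, the arms of the unfolded protein response that do not run through eIF2, were mostly lower in U2SURP and CHERP knockdown. Of 17 genes, 3 rose and 7 fell in RBM17 knockdown (median -0.07), 14 fell in U2SURP knockdown (median -0.30) and 17 fell in CHERP knockdown (median -0.54), with none higher in either of the last 2. Among all genes 25.4% rose and 29.3% fell in RBM17 knockdown, 22.2% fell in U2SURP knockdown and 24.6% fell in CHERP knockdown. HSP90B1, a chaperone of the endoplasmic reticulum, had 659 ± 50.5 CPM in RBM17 knockdown, 791 ± 17.4 CPM in U2SURP knockdown, 499 ± 34.6 CPM in CHERP knockdown and 1264 ± 102 CPM in control (SD, n = 3 each), and fell in each (-0.94, -0.68 and -1.34). HYOU1, another such chaperone, fell in CHERP knockdown to 162 ± 3.68 CPM, against 345 ± 15.4 CPM in control (-1.09 ± 0.05, edgeR adjusted p = 4.43e-14), fell in U2SURP knockdown (-0.29) and rose in RBM17 knockdown (0.14, edgeR adjusted p = 0.0165). HERPUD1, an endoplasmic reticulum degradation gene from the list of secreted and stress genes, fell in CHERP knockdown (-0.52 ± 0.054, edgeR adjusted p = 2.70e-08) and RBM17 knockdown (-0.14, edgeR adjusted p = 0.0329) and differed by -0.11 in U2SURP knockdown.

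Of 7 paralogs listed for the 10 genes, 6 were tested: 4 rose in RBM17 knockdown, 1 rose and 2 fell in U2SURP knockdown, and 2 rose and 2 fell in CHERP knockdown. The shares of all genes were 25.4% higher and 29.3% lower in RBM17 knockdown, 21.1% and 22.2% in U2SURP knockdown, and 22.8% and 24.6% in CHERP knockdown. With so few genes, the counts in U2SURP and CHERP knockdown lie near these shares. CHAC2, the constitutive relative of CHAC1, rose in RBM17 knockdown (0.60 ± 0.073, edgeR adjusted p = 1.97e-07) and U2SURP knockdown (0.44 ± 0.073, edgeR adjusted p = 2.78e-05) and differed by -0.08 in CHERP knockdown. TRIB2 fell in U2SURP knockdown (-0.57 ± 0.075, edgeR adjusted p = 1.54e-06) and CHERP knockdown (-0.85 ± 0.075, edgeR adjusted p = 2.32e-09), where TRIB3 rose, and differed by 0.03 in RBM17 knockdown. SESN3 rose in CHERP knockdown (0.50 ± 0.067, edgeR adjusted p = 1.44e-06), where SESN2 differed by -0.07, fell in U2SURP knockdown (-0.22, edgeR adjusted p = 0.0108) and differed by -0.07 in RBM17 knockdown.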

How the data were processed

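For each of 12 libraries the authors deposited 1 table of raw counts by Ensembl gene ID. The submitters' processing notes name HISAT2 2.0.5, SAMtools, HTSeq and GRCh38 without saying what each did. Which annotation release was counted, and whether strand was used, is not given in the sources used here. GENCODE 29 named 56996 of 60554 IDs and supplied coordinates, exon lengths and 5′ leaders. Groups came from the labels.

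In R 4.3.3, edgeR 4.0.16 was run with filterByExpr, TMM scaling and a robust quasi-likelihood fit over all 4 groups (common biological coefficient of variation 0.0866). Each SE was derived from the F statistic of its contrast. The genes and lists were chosen with earlier results of these data known. Named genes are the 10, the siRNA targets, up to 2 called genes per direction, list and knockdown with the largest change and a mean of at least 1 CPM, and the 5 genes nearest to ATF4; values of a named gene in the other knockdowns, and of genes overlapping the 10 or pseudogenes of them, are given beside these. Not all genes that meet the rule are printed. Alternatives were DESeq2 1.42.0 (size factors, Wald test), no filter, 2-group fits, protein-coding genes alone, no mitochondrially encoded genes and leaving out each library. On counts simulated for RBM17 knockdown against control (27180 genes), 67, 67 and 66 genes were changed by 0.5, 1 and 2 log2 units, in either direction. Of these, 88.1%, 100% and 100% were recovered, and 8 unchanged genes were called. In the data 54.7% of all genes were called in this comparison, so the simulated rates need not hold for it. Depth keeps counting error small for the 10 genes, whose lowest count was 1432. Figures were drawn with matplotlib 3.10.9.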

Additional observations from a re-analysis of the deposited data

How the results depend on the processing

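Of 60 log2 fold changes of the 10 genes (6 contrasts), 48 kept their side of the threshold in every setting tried, 5 lost a call and 7 gained one in at least 1 setting, and none changed sign with a call. ATF4 in RBM17 knockdown against control was 0.08 with protein-coding genes alone (edgeR adjusted p = 0.214), a fit with fewer genes and other scaling; the cause was not tested. Leaving out 1 library gave 0.10 to 0.20 for ATF4 in RBM17 knockdown, 0.13 to 0.23 in CHERP knockdown and -0.66 to -0.56 in U2SURP knockdown. The count of the 10 genes called stayed between 7 and 9 in RBM17 knockdown, 8 and 9 in U2SURP knockdown and 7 and 9 in CHERP knockdown when 1 library was left out. Without mitochondrially encoded genes, ATF4 was 0.19, -0.57 and 0.22 in RBM17, U2SURP and CHERP knockdown. SESN2 in U2SURP knockdown then passed (0.16, edgeR adjusted p = 0.0298). DDIT3 in CHERP knockdown passed with DESeq2 size factors (0.16, edgeR adjusted p = 0.0419). With DESeq2 size factors, 8112 of all genes were higher and 7566 lower in RBM17 knockdown, where TMM gave 7368 and 8490. Leaving out both library 2 of RBM17 knockdown and library 3 of control, chosen after seeing the data because they had the fewest genes detected in their groups, gave 0.18 for ATF4 in RBM17 knockdown (edgeR adjusted p = 0.0283). No paired analysis was possible because the labels give library numbers and no replicate numbers, and the replicate numbers used here follow accession order. The lowest count of any of the 10 genes in a library was 1432; how far depth or the number of libraries limits the calls was not tested.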
